A study of Mus musculus with 16 samples.

Results

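The proteasome subunits are the 43 genes whose mouse symbol is *Psma*, *Psmb*, *Psmc*, *Psmd* or *Psme* followed by a number, found by symbol among the 39057 rows of the count table. They were examined in 16 RNA sequencing libraries, 8 per genotype, of endothelial cells isolated from the brain cortex of *APOE3* and *APOE4* mice. In these targeted replacement mice human *APOE* is expressed from the endogenous mouse promoter, so both genotypes carry a human gene. Each library came from the cultured cortex of 1 mouse of 21 to 28 days, with 4 males and 4 females per genotype. All cultures had been selected with puromycin at 8 μg/ml, were grown to confluence and were not treated further, so the cells are cultured juvenile endothelium rather than vessels in place.

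The proteasome is the protease that degrades proteins marked with ubiquitin. Its core is a barrel of alpha rings, which gate the entrance, around beta rings, 3 of whose subunits carry the proteolytic sites. A regulatory particle with an ATPase ring unfolds substrates and feeds them in, and smaller activators can open the gate without ATP. In cells exposed to interferon the 3 catalytic subunits are replaced one for one by inducible counterparts (*Psmb9* for *Psmb6*, *Psmb8* for *Psmb5* and *Psmb10* for *Psmb7*), which gives the immunoproteasome, known for producing peptides that fit MHC class I. Brain endothelial cells form the blood-brain barrier and, like most cells, present such peptides.

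Of the 43 genes, 42 had enough counts to be tested for a difference between genotypes. *Psmb11*, the catalytic subunit of the thymus, had 0 or 1 count per library. It did not pass edgeR's filter on low counts (filterByExpr) and was not tested. Transcripts of 2 of the 42, *Psmb9* and *Psmd1*, differed between genotypes at an adjusted p under 0.05 (edgeR's quasi-likelihood test, Benjamini-Hochberg over 12481 genes), and both were higher with *APOE4*. That is 4.76% of the subunits, beside 12.8% of all genes tested (6.71% higher and 6.09% lower). Neither *Psmb9* nor *Psmd1* was called once the level of cell cycle transcripts, which also differed between genotypes, was a covariate (adjusted p = 0.648 and 0.739, edgeR). In that fit 0 of the 12481 genes were called, so the loss is not particular to these subunits. Single libraries also moved the counts called, for subunits and for all genes. Without *APOE3* replicate 27 there were 5 subunits called, and without *APOE4* replicate 38 there were 4. In another fit, without *APOE4* replicate 41, the genes called in all fell from 1597 to 846. The subunit counts stand without the share of all genes in the same fits, so they are not read as a result about the subunits. At an unadjusted p under 0.05 the counts were 10 of 42 subunits and 29.0% of all genes. The log2 fold change was above 0 in 35 subunits and below 0 in 7, with a median of 0.04, beside 49.9% of all genes above 0. With a correction for GC content and length 29 of the 42 were above 0, and with the cell cycle level as a covariate 19 of the 42, with a median of −0.01. The typical subunit moved little: the median size of the log2 fold change, whatever its sign, was 0.05 among subunits and 0.09 among all genes. In bulk cultures a different share of cells of a kind and a different amount of RNA per cell cannot be told apart.

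The promoters of both higher transcripts are shown because they belong to the only subunits that passed the test. They are RefSeq windows on GRCm38.p6, from 250 bases before to 50 after the transcript start, written 5′ to 3′ on the strand of the gene. The *Psmb9* window is chr17:34187281-34187580 on the minus strand and the *Psmd1* window is chr1:86064369-86064668 on the plus strand. GENCODE vM21 places the starts of these genes further upstream, at chr17:34187764 and chr1:86064387. By that annotation the *Psmb9* window lies wholly inside the gene and the *Psmd1* window mostly does. Capitals mark the 1 match to the searched motifs, a CCAAT box read on the opposite strand (ATTGG).
Psmb9: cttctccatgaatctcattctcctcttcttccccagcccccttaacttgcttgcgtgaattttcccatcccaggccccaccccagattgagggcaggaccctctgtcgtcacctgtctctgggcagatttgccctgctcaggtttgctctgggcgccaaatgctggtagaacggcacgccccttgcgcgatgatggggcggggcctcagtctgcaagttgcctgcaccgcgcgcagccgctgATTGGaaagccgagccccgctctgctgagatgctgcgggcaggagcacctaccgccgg
Psmd1: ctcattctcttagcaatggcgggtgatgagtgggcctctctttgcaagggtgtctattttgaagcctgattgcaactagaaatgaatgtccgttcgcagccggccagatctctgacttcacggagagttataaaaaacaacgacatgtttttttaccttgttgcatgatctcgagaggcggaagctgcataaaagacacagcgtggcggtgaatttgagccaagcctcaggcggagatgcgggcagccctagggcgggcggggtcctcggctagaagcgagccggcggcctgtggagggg
The *Psmb9* window shares 275 of its 300 bases with that of *Tap1*, the peptide transporter gene transcribed in the opposite direction. Windows were found for 36 subunits (39 windows) and searched on both strands, without regard to overlap between motifs. The core of the antioxidant response element, TGACNNNGC, was in 15.4% of subunit windows and 12.4% of all 32851 windows. The interferon-stimulated response element was in 10.3% (*Psmb3*, *Psmd4*, *Psmd9* and *Psme1*) against 3.44% of all windows. The gamma activated site, TTCNNNGAA, was in 5.13% (*Psmb8* and *Psmd2*) against 8.30%, and CCAAT in 35.9% against 37.4%.

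Within the standard core, none of the 14 subunits passed the test in either direction. Log2 fold changes ran from −0.10 to 0.12 with a median of 0.05, and 11 of the 14 were above 0, including all 7 alpha subunits, of which *Psma3* was below 0 after the correction for GC content and length. With the cell cycle covariate 5 of the 14 were above 0, and 3 of the 7 alpha subunits. The 95% intervals of the 14 together ran from −12.6% to 16.8%. At an unadjusted p under 0.05 there were 5 of the 14, which is near the 29.0% of all genes. Summed over the 14 genes, the level was 826 ± 28.2 CPM (counts scaled to a common library size, mean ± SD, n = 8) with *APOE3* and 848 ± 34.6 with *APOE4*. The highest library was *APOE4* replicate 35, at 915 CPM.

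*Psma4*, an alpha ring subunit, had the highest fold change of the core. Its lowest, median and highest levels were 50.3, 54.9 and 62.3 CPM with *APOE3* and 54.7, 60.7 and 66.0 CPM with *APOE4* (log2 fold change 0.12 with an SE of 0.0480, adjusted p = 0.0971, edgeR). Most *APOE4* libraries lay above the *APOE3* median (7 of 8), but the ranges overlapped widely. *Psma4* was called higher without *APOE3* replicate 27 or without *APOE4* replicate 36. *Psma2*, its neighbour in the alpha ring, went from 55.9 ± 2.43 to 59.7 ± 2.72 CPM (log2 fold change 0.09, adjusted p = 0.0958, edgeR). *Psma6* had a log2 fold change of 0.07, with all 8 *APOE4* libraries above the *APOE3* median of 61.3 CPM. Among structural beta subunits, *Psmb1* went from 71.8 ± 3.21 to 76.2 ± 3.45 CPM (log2 fold change 0.09, adjusted p = 0.114, edgeR).

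The 3 standard catalytic subunits did not share a direction, and none passed the test. *Psmb6*, which carries the caspase-like site, had 83.5, 87.4 and 90.3 CPM as its lowest, median and highest level with *APOE3*, and 73.8, 83.7 and 95.5 CPM with *APOE4* (log2 fold change −0.10 with an SE of 0.0447, adjusted p = 0.150, edgeR). The *APOE4* libraries were spread wider, with an SD of 7.33 against 2.16 CPM, and the highest of all 16 was also an *APOE4* library. Without that library, *APOE4* replicate 35, *Psmb6* was called lower. *Psmb7*, which carries the trypsin-like site, had 44.6, 52.5 and 55.7 CPM with *APOE3* and 49.6, 55.9 and 61.5 CPM with *APOE4* (log2 fold change 0.11, adjusted p = 0.148, edgeR). *Psmb5*, with the chymotrypsin-like site, had 35.1 ± 1.74 and 36.3 ± 1.79 CPM (log2 fold change 0.05, adjusted p = 0.494, edgeR). Its counts are uncertain, since 54.1% of the 50-base stretches of its exons also occur in other genes, mainly the pseudogene *Gm3375*.

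The inducible catalytic subunits were all above 0 in fold change, and 1 of the 3 passed the test. *Psmb9* had 10.7, 12.1 and 14.36 CPM as its lowest, median and highest level with *APOE3*, and 14.41, 15.7 and 17.7 CPM with *APOE4*. All 8 *APOE4* libraries thus lay above all 8 *APOE3* libraries, by a narrow margin at the boundary. This was the only subunit without overlap, which 0.625% of all genes showed. On the log2 scale the genotypes were 0.36 apart (adjusted p = 0.00802, SE 0.0746, edgeR), a difference of 28.2% (95% interval 14.7% to 43.2%), and rested on 159 to 288 counts per library. *Psmb9* has 5.79% of its exon bases opposite exons of *Tap1*, and whether counting used strand is not given in the sources used here. *Tap1* itself was 37.4 ± 2.33 and 37.7 ± 2.96 CPM (log2 fold change 0.01, adjusted p = 0.912, edgeR).

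*Psmb8* followed with 27.3, 30.5 and 35.6 CPM with *APOE3* and 27.2, 34.9 and 37.9 CPM with *APOE4* (log2 fold change 0.16 with an SE of 0.0643, adjusted p = 0.102, edgeR). In all, 7 of 8 *APOE4* libraries were above the *APOE3* median, while replicate 38 was the lowest of all 16 libraries. *Psmb8* was called higher without that library, and also without *APOE3* replicate 27, the highest *APOE3* library. *Psmb10* had 44.6 ± 2.54 and 46.6 ± 1.99 CPM (log2 fold change 0.06, adjusted p = 0.313, edgeR). The 3 inducible transcripts summed to 87.8 ± 4.80 CPM with *APOE3* and 97.0 ± 3.97 CPM with *APOE4*.

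**Figure D1:**
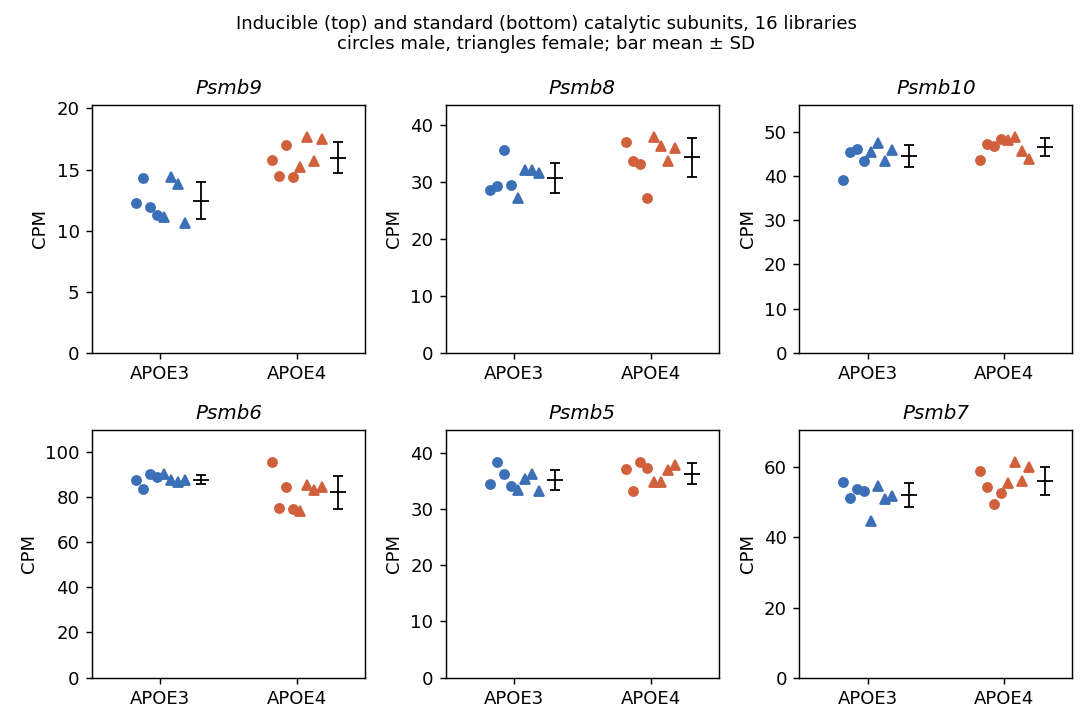
Levels in CPM (vertical axes, from 0) of the inducible catalytic subunits in the upper row and the standard ones they replace in the lower row, per library of each genotype. Circles are male and triangles female libraries, and the bar is the mean ± SD of 8. The genotypes are apart for *Psmb9* only, and for *Psmb6* the *APOE4* libraries are spread from 73.8 to 95.5 CPM.

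Because each inducible subunit takes the place of 1 standard subunit, the pairs were also compared within libraries, as the log2 ratio of their CPM. The *Psmb9* to *Psmb6* ratio was −2.81 ± 0.196 with *APOE3* and −2.35 ± 0.109 with *APOE4* (SD, n = 8), a difference of 0.46 (two-sided exact permutation p = 0.000311, adjusted over the 3 ratios 0.000932). All 8 *APOE4* libraries were above the *APOE3* median, with a slight overlap, since *APOE4* replicate 35 at −2.58 fell below the highest *APOE3* library at −2.53. The *Psmb8* to *Psmb5* ratio differed by 0.11 (exact permutation p = 0.170, adjusted 0.256). Without *APOE4* replicate 38, the library with the lowest *Psmb8* level of all, that difference was 0.17. This was the top of the range when 1 library was left out, and the library is singled out here by its value. The *Psmb10* to *Psmb7* ratio differed by −0.04 (exact permutation p = 0.550). Against *Tap1*, a comparison chosen after the data had been seen, *Psmb9* was at −1.59 ± 0.190 with *APOE3* and −1.24 ± 0.0589 with *APOE4*, without overlap (difference 0.35, two-sided exact permutation p = 0.000155, the smallest these permutations can give). Both ratios contain *Psmb9*, so they are no second line of evidence for the difference in that transcript.

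**Figure D2:**
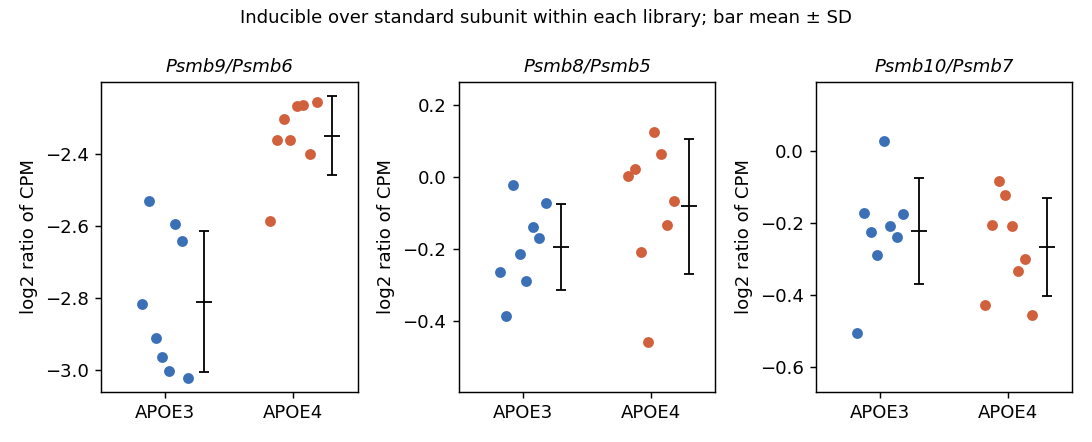
Log2 ratio of the CPM of an inducible subunit to that of its standard counterpart (vertical axes, equal spans) in each of 8 libraries per genotype, with the mean ± SD as a bar. *Psmb9*/*Psmb6* is higher in *APOE4* by 0.46, while the other ratios overlap between genotypes.

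Per kilobase of principal transcript, *Psmb9* made up 7.75% ± 0.994 of the sum of *Psmb9* and *Psmb6* with *APOE3* and 10.3% ± 0.680 with *APOE4*. The standard subunit thus remained the main transcript of that pair in both genotypes. *Psmb8* made up 32.6% ± 1.81 and 34.3% ± 2.86 of its pair with *Psmb5*. *Psmb10* made up 43.1% ± 2.50 and 42.4% ± 2.29 of its pair with *Psmb7*. These shares depend on the length chosen. Per kilobase of all annotated exons together the *Psmb9* shares were 6.79% and 9.08%, and those of *Psmb8* 18.9% and 20.2%. Those of *Psmb10* were 63.2% and 62.5%, which turns the order of *Psmb10* and *Psmb7*. The *Psmb8* shares also rest on the uncertain counts of *Psmb5*.

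In the regulatory particle, 1 of 17 subunits, *Psmd1*, passed the test. *Psmd1* is a scaffold of the base, to which the ubiquitin receptor Adrm1 binds. It had 95.9, 100.7 and 105.2 CPM as its lowest, median and highest level with *APOE3* and 104.8, 109.4 and 110.9 CPM with *APOE4* (log2 fold change 0.11 with an SE of 0.0267, adjusted p = 0.0135, edgeR). All 8 *APOE4* libraries exceeded the *APOE3* median, and the ranges overlapped by less than 1 CPM. The difference was 7.94% (95% interval 3.74% to 12.3%). *Psmd1* also varied least of the tested subunits within genotypes, by a coefficient of variation of 2.68%. Of its 50-base stretches 6.22% also occur in other genes, mainly *Gm21972*, which overlaps it.

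*Psmc1*, a subunit of the ATPase ring with 14.1% of its 50-base stretches shared with other genes, came close to the threshold. It went from 98.8 ± 5.27 to 107.1 ± 6.01 CPM, with all 8 *APOE4* libraries above the *APOE3* median (log2 fold change 0.12, adjusted p = 0.0520, edgeR). DESeq2's Wald test called it, as did the edgeR fits without *APOE3* replicate 25, 27 or 32 or without *APOE4* replicate 38 or 43. *Psmd14*, the deubiquitinase of the lid that removes ubiquitin chains before degradation, went from 32.5 ± 3.03 to 36.0 ± 2.36 CPM (log2 fold change 0.15, adjusted p = 0.0868, edgeR). It was called without *APOE3* replicate 31. The remaining regulatory subunits stayed near 0, down to −0.05 for the ATPase *Psmc2*, and 14 of the 17 were above 0 with a median of 0.02, of which *Psmc6*, *Psmd7*, *Psmd11* and *Psmd12* were below 0 after the correction for GC content and length. With the cell cycle covariate 5 of the 17 were above 0. Intervals of the 16 that were not called lay between −9.47% and 20.3%. The sum over the particle was 1576 ± 53.7 CPM with *APOE3* and 1619 ± 60.5 CPM with *APOE4*, with *APOE4* replicate 35 the highest at 1753 CPM.

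**Figure D3:**
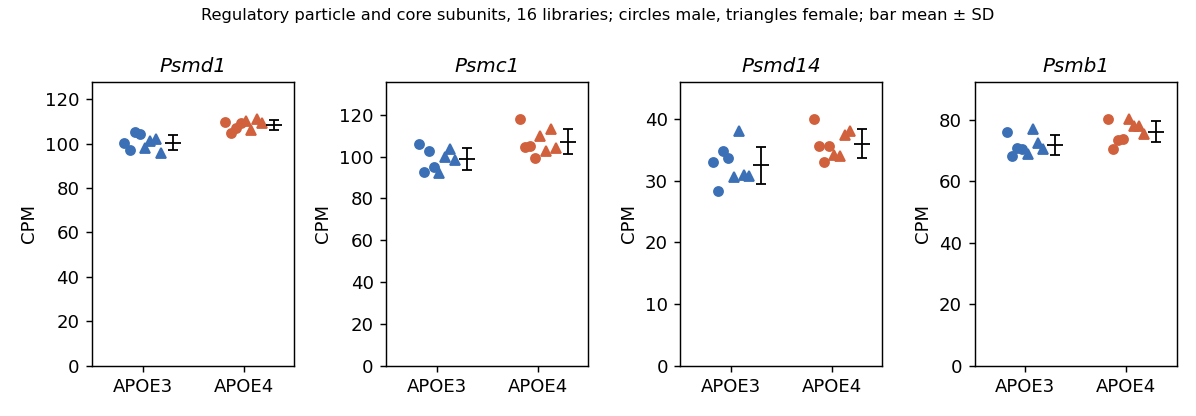
Levels in CPM (vertical axes, from 0) of *Psmd1*, *Psmc1*, *Psmd14* and *Psmb1* in each library of each genotype, circles male, triangles female, bar mean ± SD of 8. The genotypes nearly separate for *Psmd1*, with means of 100.5 and 108.4 CPM, and overlap for the other genes.

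The chaperones *Psmd5*, *Psmd9* and *Psmd10* guide assembly of the ATPase ring and are absent from the finished particle. None of the 3 passed the test, with log2 fold changes up to 0.07 and intervals from −7.93% to 17.3%. None of the 4 activators passed it either. *Psme1* and *Psme2*, which form the interferon-inducible PA28 cap, had log2 fold changes of 0.04 and 0.08 (adjusted p = 0.532 and 0.241, edgeR). For *Psme1* the levels were 83.5 ± 4.52 and 85.7 ± 3.70 CPM, and for *Psme2* 50.03 ± 2.84 and 53.0 ± 3.64 CPM. *Psme3*, the nuclear PA28 subunit, was at 0.02 and *Psme4*, the PA200 activator, at −0.02. *Psma8*, an alpha subunit known from testis, was detected at 4.44 ± 0.678 and 5.18 ± 0.825 CPM (log2 fold change 0.22 with an SE of 0.117, adjusted p = 0.219, edgeR), on 54 to 107 counts per library.

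**Figure D4:**
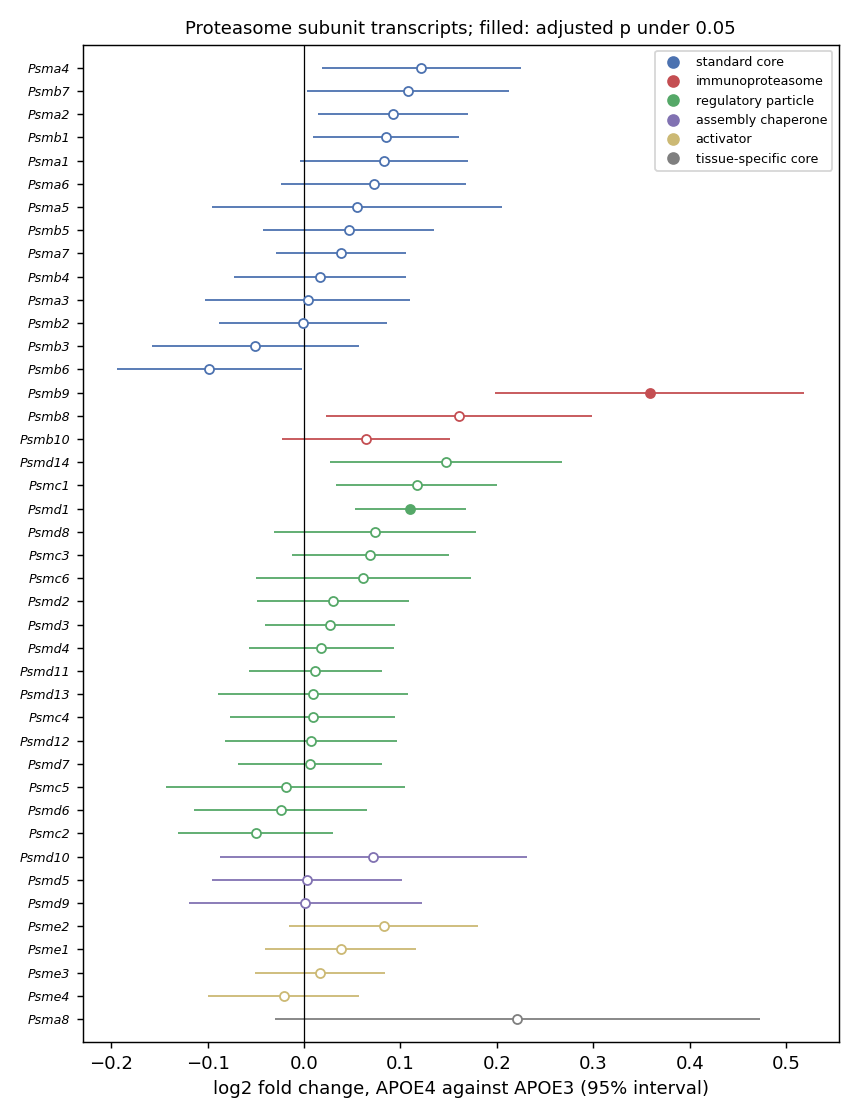
Log2 fold change of *APOE4* against *APOE3* with its 95% interval (horizontal axis) for the 42 tested subunits, coloured by class. Filled points, *Psmb9* at 0.36 and *Psmd1* at 0.11, passed an adjusted p of 0.05, and most others lie within 0.1 of 0.

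As a whole, the subunits took 0.285% ± 0.00893 of all counts with *APOE3* and 0.291% ± 0.00909 with *APOE4*. The highest library was *APOE4* replicate 35, at 0.310%. Between cultures of 1 genotype the median coefficient of variation of the subunits was 5.62%, beside 8.06% over the 9345 genes tested between 4.44 and 206 CPM. *Psma8* alone set the lower end of that range, so these genes are not matched to the subunits in level. Levels of different subunits were compared per kilobase of principal transcript (RPKM), a length chosen after the data had been seen. The highest means over 16 libraries were those of *Psmd8*, a lid subunit, at 109 RPKM, *Psmb6* at 106 and *Psma7* at 104. The class medians were 45.8 RPKM for the standard core, 42.1 for the regulatory particle, 40.6 for the activators, 20.0 for the inducible subunits and 8.75 for the chaperones. Subunits that stand in equal numbers in the core ran from 11.9 to 106 RPKM by this length. Per kilobase of all annotated exons they ran from 8.70 to 68.2 RPKM. The range thus depends on the length chosen, and its cause was not tested. Over all annotated exons, *Psmb2*, *Psmc3* and *Psmd8* led instead, at 68.2, 55.3 and 55.1 RPKM. For *Psmb5*, *Psma5* and *Psme2*, over 25% of the 50-base stretches are shared with other genes, which makes their levels uncertain.

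**Figure D5:**
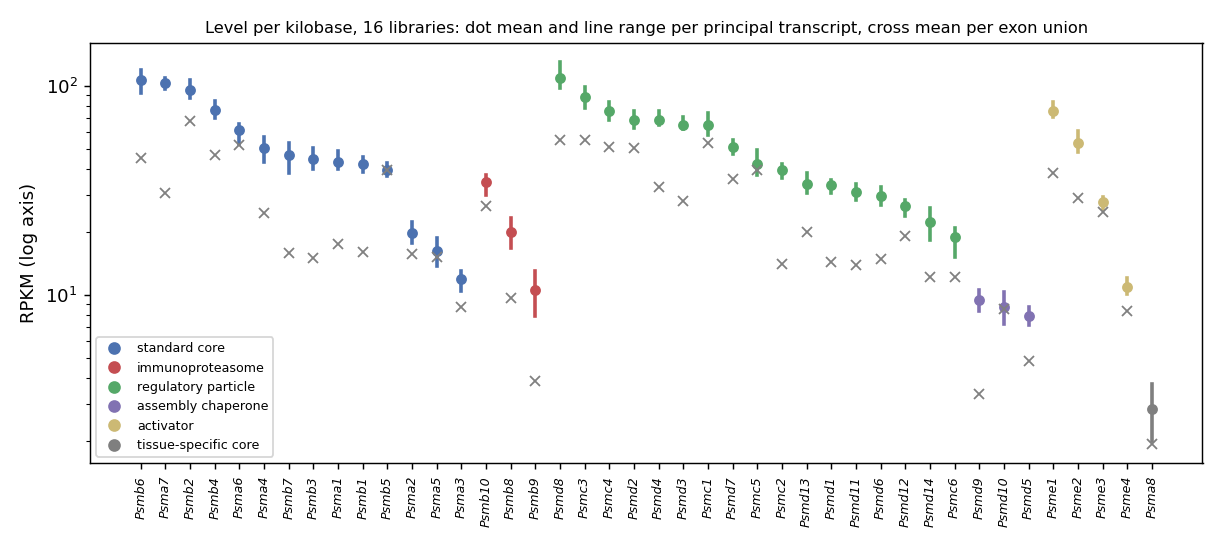
Level of each subunit per kilobase (RPKM, log axis) over 16 libraries, as the mean (dot) and range (line) per principal transcript and the mean per exon union (grey cross), grouped by class. Core and regulatory subunits mostly lie above the chaperones, *Psmb9* and *Psma8*, and the crosses fall below the dots where annotated exons extend beyond the principal transcript.

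The subunits are spread over 16 chromosomes, with 8 of them on chromosome 11. Neighbours within 20000 bases of each other are *Psmb8* and *Psmb9* (chromosome 17, 9957 bases apart), *Psme1* and *Psme2* (chromosome 14, 5912 bases) and *Psmb5* and *Psmb11* (chromosome 14, 3411 bases). *Psmb9* spans chr17:34181987-34187764 on the minus strand and *Psmd1* chr1:86064387-86139151 on the plus strand (GRCm38, GENCODE vM21).

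Between female and male cultures, with genotype as a covariate, no subunit differed at an adjusted p under 0.05 (0.0721% of all genes did) or at an unadjusted p under 0.05 (4.41% of all genes, edgeR). Genotype effects in male and female cultures were examined in 1 fit of 4 groups with 4 libraries each. No subunit passed an adjusted p of 0.05 within males, within females or for the difference between sexes (edgeR), where none of all 12481 genes did either (0% called). At an unadjusted p under 0.05 there were 2 subunits in males (14.2% of all genes), 8 in females (19.5%) and 2 for the difference (2.76%). For *Psmb9* the log2 fold change was 0.31 in males (SE 0.109) and 0.40 in females (SE 0.108), a difference of 0.09 (SE 0.153, adjusted p = 1.00, edgeR). The 2 subunits with a difference between sexes before adjustment were *Psma8* (0.46 in males, −0.03 in females) and *Psmb7* (0.01 in males, 0.21 in females).

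Genes that work with the proteasome were read from the same fit. Of 32 tested that build it, feed it or regulate it, 2 passed (6.25%, beside 12.8% of all genes) and 23 were above 0. *Usp14*, a deubiquitinase that docks on the regulatory particle, was higher, at 33.5 ± 1.11 and 37.0 ± 2.65 CPM (log2 fold change 0.14, adjusted p = 0.0409, edgeR), a call kept in 5 of the 16 fits without 1 library (adjusted p 0.0242 to 0.0867). Another list held 10 genes of antigen processing and its induction, which act downstream of the immunoproteasome or control it. It was written with earlier results of these data known. Of its genes 3 passed, all higher (30% of the list, beside 12.8% of all genes called and 6.71% called higher). Those named here were *B2m*, the light chain of MHC class I (log2 fold change 0.32, adjusted p = 0.00448, edgeR) and *Nlrc5*, the activator of MHC class I genes (0.74, adjusted p = 0.00542). With the cell cycle covariate neither was called, at 0.29 and 0.64 (adjusted p = 0.494 and 0.545, edgeR), nor was *Usp14*, at 0.07 (adjusted p = 0.823, edgeR). No gene at all was called in that fit. *Tap2*, the partner of *Tap1* in the peptide transporter, was at −0.04 (adjusted p = 0.497, edgeR).

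Other features of the cultures moved with genotype or did not. Total counts were 14276942 to 16603076 with *APOE3* and 12717847 to 18624417 with *APOE4*. All 12 brain endothelial markers were detected, summing to 14356 to 15307 CPM with *APOE3* and 14216 to 15540 CPM with *APOE4*, and 1 of them, *Emcn*, was called higher (log2 fold change 0.14, adjusted p = 0.0106, edgeR). Sums with *APOE3* and *APOE4* were 191 to 357 and 225 to 343 CPM for 9 pericyte and smooth muscle markers, 12.5 to 60.5 and 8.49 to 77.1 CPM for 5 fibroblast markers, and 8.38 to 12.0 and 9.96 to 14.3 CPM for 4 neuron markers. They were at most 4.16 CPM for 5 astrocyte markers, 1.97 CPM for 4 oligodendrocyte markers and 7.94 CPM for 9 microglia and macrophage markers. Of the last, *P2ry12* and *Itgam* were at 0 in all libraries, and all but *Cd68* were under 1 CPM. The pericyte markers *Rgs5*, *Kcnj8* and *Abcc9* and the fibroblast markers *Dcn* and *Lum* were also under 1 CPM in all libraries. Of the 7 lists of cell type markers the neuron list alone differed between genotypes before adjustment (two-sided exact permutation p = 0.0168 for the summed level, adjusted over the lists 0.117). It was higher with *APOE4*, and its markers *Snap25* and *Syt1* were near 0. The part of any of these lists in the results was not tested.

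Among the lists examined, that of cell cycle transcripts had the highest share called. Of 25 cell cycle genes, all were above 0, beside 49.9% of all genes. The test was passed by 23, all higher with *APOE4*, beside 6.71% of all genes called higher. This list was written with earlier results of these data known, so the p given next is no independent test. The summed level of the list was 1065 to 2234 CPM with *APOE3* and 1812 to 3144 CPM with *APOE4* (two-sided exact permutation p = 0.00155 for the mean log2 level). With that mean level as a covariate, no subunit was called (3 at an unadjusted p under 0.05), and neither was any of the 12481 genes (897 unadjusted, edgeR). In that fit 19 of 42 subunits were above 0, the estimate was 0.24 for *Psmb9* (adjusted p = 0.648, SE 0.101) and 0.06 for *Psmd1* (adjusted p = 0.739, SE 0.0349). The covariate is itself different between genotypes, so the 2 cannot be told apart in these libraries.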

How the data were processed

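Polyadenylated RNA of 16 cultures was sequenced after 17 cycles of PCR, without molecular identifiers. The authors deposited raw counts per gene, made per the labels with STAR and featureCounts on mm10 and hg38. Versions, annotation release, strand setting and the treatment of reads with several matches are not given in the sources used here. All columns were mapped to cultures by label.

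Tests were run with edgeR 4.0.16 under R 4.3.3 (filterByExpr by genotype, TMM, quasi-likelihood F test, Benjamini-Hochberg over 12481 genes, threshold 0.05). CPM were scaled by effective library size. Log2 ratios used a prior count of 2 and were compared over all 12870 assignments of libraries to genotypes. Intervals of fold changes are 95% intervals with 14 residual degrees of freedom. On simulated counts the genotype fit recovered 60 of 100 genes changed by 0.4 and 97 of 100 changed by 1 on the log2 scale. It made 7 false calls among 12397 genes. Each gene was simulated on its own, without a shared shift such as the cell cycle level, so false calls from such a shift are not covered. Both sizes exceed the largest fold change of a subunit, 0.36, so recovery of smaller changes is not covered either.

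Of the 39056 mouse rows, 184 did not match GENCODE vM21 and 38872 did. Subunits were found by symbol and all could be named. Partner genes were named at an adjusted p under 0.05, apart from 2 that are counted but not reported here, plus *Tap1* and *Tap2*. Subunits, gene lists and tests were chosen with earlier results of these data known. *Paaf1* was not analysed here. Alternatives were DESeq2 1.42.0 size factors and Wald test, limma 3.58.1 voom with quality weights, other filters, sex or the cell cycle level as covariate, a correction for GC content and length with splines of 5 degrees of freedom, and each library left out in turn.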

Additional observations from a re-analysis of the deposited data

Results flagged for a closer look

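Single libraries that stood apart from the other 7 of their genotype were searched by the gap to the nearest library, as a share of the range. Of 104 groups examined 5 were picked out, about as many as chance gives (1 in 20). For *Psmb7* in *APOE3* the share was 0.61, from replicate 30 at 44.6 CPM, and for *Psmc6*, an ATPase of the regulatory particle, in *APOE3* it was 0.577, from the same replicate at 33.8 CPM. For *Psmb8* in *APOE4* it was 0.601, from replicate 38 at 27.2 CPM. For the log2 ratio of *Psmb9* to *Psmb6* in *APOE4* it was 0.558, from replicate 35 at −2.58. For *Nlrc5* in *APOE3* it was 0.623, from replicate 33 at 3.89 CPM. Each of these libraries was the lowest of its genotype.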

How the results depend on the processing

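*Psmb9* and *Psmd1* were called in all 16 fits without 1 library (log2 fold changes 0.33 to 0.39 and 0.10 to 0.12) and in 7 of 8 other alternatives, the exception being the cell cycle level as a covariate. With that covariate the counts called were 0 of all genes, 0 subunits and 0 partner genes, and the log2 fold change changed sign in 18 of 42 subunits, among them *Psma4* (−0.014), *Psma6* (−0.057), *Psmb5* (−0.012), *Psme1* (−0.021) and *Psme4* (0.054), and in *Tap2* (0.012). The correction for GC content and length changed the sign in 6 subunits, voom in 4 and no filter in 2. Without 1 library the number of genes called ran from 846 to 2127 beside 1597, being 846 without *APOE4* replicate 41, 853 without *APOE3* replicate 30 and 952 without *APOE3* replicate 33. Subunits called ran from 2 to 5 (5 without *APOE3* replicate 27, 4 without *APOE4* replicate 38), and DESeq2's Wald test called 3. Partner genes called ran from 3 to 7 beside 5 (3 without *APOE3* replicate 28, 30 or 33 or *APOE4* replicate 35, 40 or 41), and 3 were called with no filter. Across those fits *Psme4* ran from −0.039 to 0.00074 and *Tap1* from −0.014 to 0.033. The *Psmb8* to *Psmb5* ratio difference ran from 0.083 to 0.17 without 1 library, *Psmb9* to *Psmb6* from 0.43 to 0.50. The causes of these shifts were not tested. No paired analysis was possible because the genotypes share no replicate numbers. Depth limits *Psmb9*, *Psma8* and *Psmd10* most, and precision from counts covers counting error only.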
